A study of Mus musculus with 20 samples.

Results

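The EGF family of growth factors and the ERBB receptors they bind were followed in the intestine of 20 mice. Each mouse gave RNA for a single 1-colour array (Agilent SurePrint G3 Mouse). Members were all probes named for 1 of 10 genes, 7 ligands (Areg, Ereg, Epgn, Btc, Hbegf, Tgfa and Egf) and 3 receptors (Egfr, Erbb2 and Erbb3), out of 24842 genes with a probe. These 10 genes had 20 probes. All mice were tamoxifen-treated. The 6 Cre control mice were VillinCreER/0, carrying a tamoxifen-inducible Cre under the Villin promoter, which is active in gut epithelium, and the 6 BRAFV600E mice carried in addition the BrafV600E-LSL/+ allele, in which Cre unlocks expression of the mutant kinase. Both groups were C57BL6/j, 8 to 12 weeks old, received 3 daily doses of 2 mg tamoxifen, and were sampled 3 days after the last dose. In the second experiment 4 MEKi mice received the MEK inhibitor PD184352 and 4 Vehicle mice its carrier, each as 3 daily injections after 2 injections of 100 μl tamoxifen at 10 mg/ml. Genotype is missing from the labels of these 8 mice, and the study's figure legends place them in the BrafV600E background. A treatment text repeated on every label describes a statin and female animals, fits no group here and was not used.

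Ligands of this family are made as membrane-anchored precursors that ADAM proteases cut free, and they act on the same or neighbouring cells. Areg, Epgn, Egf and Tgfa bind EGFR, whereas Btc, Ereg and Hbegf bind both EGFR and ERBB4. ERBB2 has no known soluble ligand and serves as a partner of the other receptors, and ERBB3 has little kinase activity of its own and signals through its partner. In the gut the pathway sustains stem cells and repair of the epithelium, and its ligands are well known both as activators of the RAS, RAF, MEK and ERK cascade and as transcripts that this cascade controls.

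A level is given as the log2 processed signal minus the 75th percentile of the same array, so that 0 is the 75th percentile and a step of 1 is a doubling. Levels were compared between groups for 1 probe at a time and never between genes, because probes differ in brightness. A gene was called when its Benjamini-Hochberg adjusted p from limma, over all genes tested, was under 0.05. All 12 arrays of the first experiment lay on 2 slides. Slide 1 held all 6 Cre control arrays with replicates 1 and 2 of BRAFV600E, and slide 2 held BRAFV600E replicates 3 to 6. All 8 arrays of the other experiment were on 1 slide, with MEKi in row 1 and Vehicle in row 2, so that row and group cannot be told apart, and the experiments were never compared with each other.

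Epithelial markers (8 of 8, among them Epcam and Vil1) were well above background on every array. The 6 Paneth cell markers on the array had a mean level of 5.74 to 6.25 in Cre control and 3.36 to 5.29 in BRAFV600E, and 4 of the 6 were called lower there. Other lists moved with BRAFV600E as well. Of 6 markers of enteric neurons and glia 3 were called lower (array means -2.42 to -1.85, against -1.71 to -1.22 in Cre control), of 6 leukocyte markers 2 were called lower (0.61 to 1.06, against 0.75 to 1.79), of 6 smooth muscle markers 2 were called higher (2.99 to 3.88, against 2.73 to 3.37) and of 8 epithelial markers 3 were called higher (Cdh1, Krt18 and Krt19). In MEKi the epithelial marker Krt19 was called lower (-0.73, adjusted p 0.0297) and the mast cell marker Kit higher (0.75, adjusted p 0.0473). The part of any of these cells in the levels of the genes described here was not tested. In these bulk samples fewer cells of a type and less RNA per cell cannot be told apart. Exocrine pancreas markers averaged 7.53 on Vehicle replicate 2 and between -4.05 and -3.16 on the other 7 arrays of that slide. Tff2, a trefoil factor gene of Brunner gland and gastric mucous cells, was at 6.23 on BRAFV600E replicate 2 and 4.52 on Vehicle replicate 2, against at most -4.91 on the other arrays. The other 2 markers of those cells were Muc6 and Muc5ac. They were at -1.45 and -2.42 on the first and at -2.91 and -2.71 on the second of these arrays. The Muc6 level of -1.45 was the highest of all arrays, followed by -1.90 on Cre control replicate 2. The remaining values lay within the range of the other arrays. Y-linked transcripts were high on 3 of 6 Cre control, 4 of 6 BRAFV600E, 4 of 4 MEKi and 2 of 4 Vehicle arrays, where the study's methods state equal numbers of males and females for the BRAFV600E experiment.

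Of the 10 members, 4 ligands lie beside each other on chromosome 5. On build mm9, the coordinates of the deposited files, their probes run in the order Epgn (chr5:91461324-91461383), Ereg (chr5:91522553-91522612), Areg (chr5:91570090-91570149) and Btc (chr5:91787139-91787198). Promoter windows of 250 bases before to 50 after the start site were taken from RefSeq (build GRCm38.p6), where 7 of the 10 members had 8 windows. The window of Btc is shown because Btc was the 1 member called below, that of Areg as its neighbour on chromosome 5, which was not called, and that of Errfi1, a feedback inhibitor of the receptors, because it had the largest change among the pathway genes. Capitals mark matches, on either strand, to TGACGTCA (the cAMP response element) and TATAAA (the TATA box). The windows lie at chr5:91139349-91139648 (plus strand, Areg), chr5:91402945-91403244 (minus strand, Btc) and chr4:150854820-150855119 (plus strand, the second of 2 windows of Errfi1).
Areg: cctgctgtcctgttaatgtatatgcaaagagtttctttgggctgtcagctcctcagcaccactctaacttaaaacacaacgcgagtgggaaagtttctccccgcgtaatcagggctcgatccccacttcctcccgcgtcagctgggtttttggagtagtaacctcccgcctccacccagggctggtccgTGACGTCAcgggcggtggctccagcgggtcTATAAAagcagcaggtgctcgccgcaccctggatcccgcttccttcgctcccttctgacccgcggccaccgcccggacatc
Btc: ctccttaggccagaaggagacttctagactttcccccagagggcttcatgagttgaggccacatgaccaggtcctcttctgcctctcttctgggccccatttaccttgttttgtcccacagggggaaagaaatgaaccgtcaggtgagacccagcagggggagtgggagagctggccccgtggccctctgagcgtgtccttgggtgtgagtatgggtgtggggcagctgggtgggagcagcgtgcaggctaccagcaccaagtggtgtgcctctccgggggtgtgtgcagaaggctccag
Errfi1: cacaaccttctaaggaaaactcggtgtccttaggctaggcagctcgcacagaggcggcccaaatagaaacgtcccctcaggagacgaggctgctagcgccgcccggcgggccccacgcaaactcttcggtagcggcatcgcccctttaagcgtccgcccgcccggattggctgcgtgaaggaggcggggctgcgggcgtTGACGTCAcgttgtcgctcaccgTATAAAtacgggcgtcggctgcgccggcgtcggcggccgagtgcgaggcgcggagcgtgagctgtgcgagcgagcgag
Both motifs were found in the windows of Areg and Errfi1, TGACGTCA starting 61 and 51 bases before the start site and TATAAA starting 31 and 28 bases before it. Neither lay in the window of Btc, nor in that of Tgfa, and TATAAA alone was found for Epgn. Among all 32851 windows of this length TGACGTCA was present in 1.79% and TATAAA in 13.6%. Matches to TGANTCA (the AP-1 site, in 7.81% of all windows) were found for none of the 7 members or Errfi1, and matches to CCGGAAG (an ETS site, in 8.86%) in 1 of the 2 windows of Egf and in that of Egfr. No match of one motif overlapped another. Such matches are letters in a window and were not related to binding.

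The first comparison asked how these genes differed 3 days after the mutant kinase was induced in the epithelium. None of the 10 members was called between BRAFV600E and Cre control, against 13% of all 18926 genes tested (2468 genes). At an unadjusted p under 0.05 in the same limma fit, 6 of the 10 differed, 4 of them higher (Btc, Hbegf, Tgfa and Erbb3) and 2 lower (Egf and Ereg), where 30.5% of all genes did so. The median size of the 10 log2 fold changes was 0.67, against 0.31 over all genes. No member had groups that did not overlap, a pattern found in 7.5% of all genes.

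Btc (betacellulin) had the largest fold change of the 10. Its level in Cre control ran from -6.52 over a median of -4.13 to -3.30, and in BRAFV600E from -3.50 over a median of -3.06 to -1.49. All 6 BRAFV600E arrays lay above the Cre control mean, and the groups overlapped only because Cre control replicate 4 (-3.30) was above BRAFV600E replicate 5 (-3.50). The log2 fold change was 1.53 (SE 0.50, 95% interval 0.46 to 2.6), a 2.89-fold higher signal, with an adjusted p of 0.0588 and an exact two-sided permutation p of 0.00433 over the 12 arrays. Cre control replicate 2, the lowest, was the only array of the 20 on which this probe was not well above background, and without it the log2 fold change was 1.09 (adjusted p 0.0637). Within slide 1, where the 2 BRAFV600E arrays were the highest of the 12 for Btc, the log2 fold change was 2.33. Its adjusted p was 0.131 when the arrays of slide 1 were fitted alone and 0.0493 when slide was a block in the fit of all 12 arrays. Slide 2 held BRAFV600E arrays alone. With slide as a block, here and below, the group difference therefore rests on slide 1, with 2 BRAFV600E arrays. The arrays of slide 2 then bear only on the spread. BRAFV600E replicate 2, the array with the high Tff2 level, had the highest Btc level (-1.49), and the log2 fold change was 1.27 without it. With normexp background correction in place of the scanner's own, it was 0.36 (adjusted p 0.185). That correction also added a constant of 50 to every signal, here and wherever normexp is named. The part of this constant in the smaller value was not tested. A second Btc probe was not well above background on any array and gave no value to compare.

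Hbegf (heparin-binding EGF-like growth factor, on chromosome 18) ran from -0.19 over a median of 0.52 to 1.36 in Cre control and from 0.72 over 1.35 to 2.01 in BRAFV600E. All 6 BRAFV600E arrays were above the Cre control mean of 0.55, but Cre control replicates 1 and 2 reached into the BRAFV600E range. Its log2 fold change reached 0.89 (SE 0.30, adjusted p 0.0677, exact permutation p 0.0173). It was 0.46 (adjusted p 0.502) with slide as a block, since the 4 arrays of slide 2 were at 1.27 to 2.01 and the 2 BRAFV600E arrays of slide 1 at 0.72 and 1.30. Slide 2 held BRAFV600E arrays alone, so for them slide and genotype cannot be told apart. A second Hbegf probe, matched to another transcript, had a log2 fold change of -0.31 (adjusted p 0.638 with every probe tested), so the probes of this gene disagreed.

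Tgfa (transforming growth factor alpha) ran from -4.52 over a median of -3.44 to -2.69 in Cre control and from -3.49 over -2.6 to -1.64 in BRAFV600E. The groups overlapped, although each BRAFV600E array was above the Cre control mean of -3.50. The difference was 0.83 on the log2 scale (SE 0.34, adjusted p 0.121, exact permutation p 0.0498), 1.49 (adjusted p 0.0523) with slide as a block and 0.21 (adjusted p 0.417) with normexp background correction. The probe behind these values is annotated to the transcript ENSMUST00000193710 (mm9 chr6:86159850-86159908), and the probe of the RefSeq transcript NM_031199 (chr6:86224838-86224897) gave a log2 fold change of 0.29 (adjusted p 0.655).

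**Figure D1:**
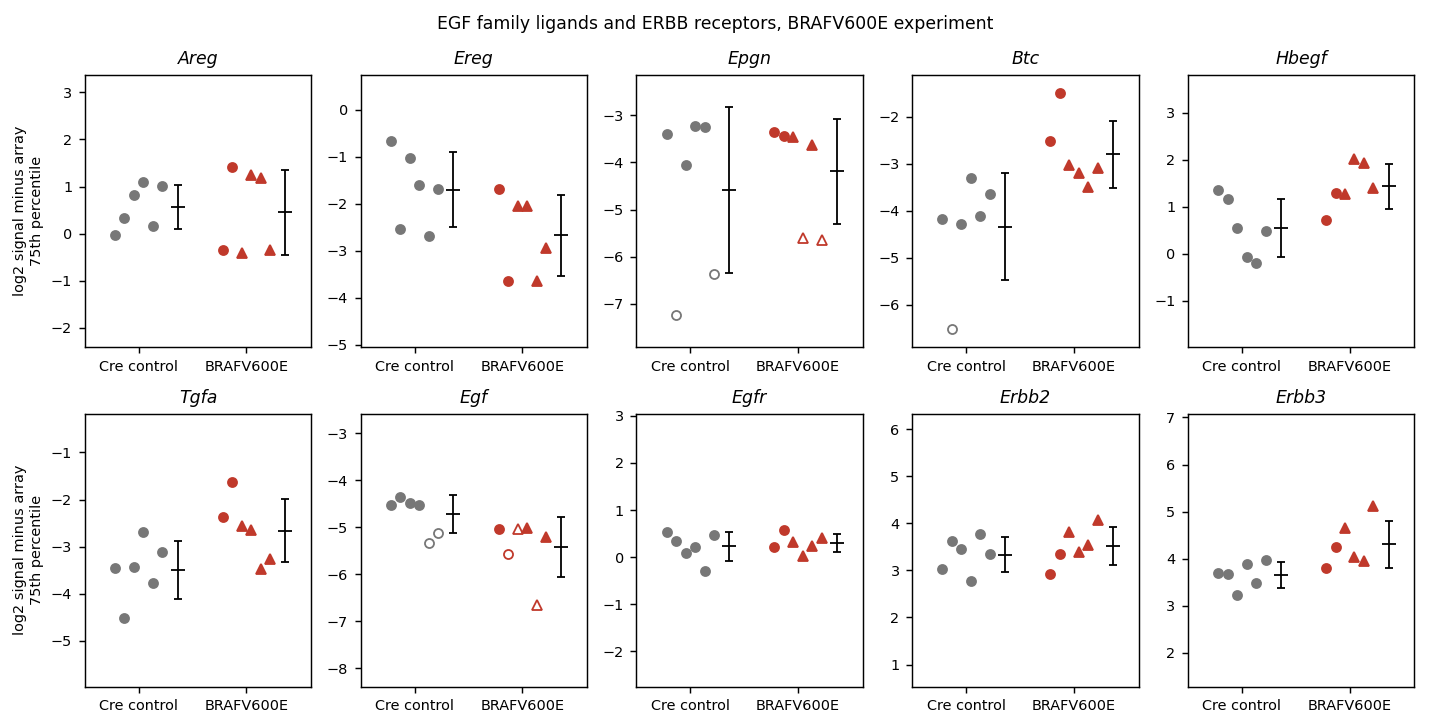
Level of each gene on every array of the BRAFV600E experiment, as log2 signal minus the array's 75th percentile. Circles are arrays of slide 1, triangles arrays of slide 2, open symbols arrays on which the probe was not well above background, and black bars the mean ± SD (n = 6). Every panel spans the same number of log2 units, so that heights of differences can be compared. The BRAFV600E arrays of Btc lie mostly above the Cre control arrays. Those of Areg lie above and below the Cre control range, and those of Egfr mostly within it.

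Of the remaining ligands, Ereg and Egf had negative values, and those of Areg and Epgn were smaller than their standard errors. Ereg (epiregulin) ran from -2.69 over a median of -1.65 to -0.66 in Cre control and from -3.65 over -2.5 to -1.68 in BRAFV600E. Its log2 fold change was -0.97 (SE 0.44, adjusted p 0.155, exact permutation p 0.0779), with 5 of 6 BRAFV600E arrays below the Cre control mean and overlapping groups. Egf, the founding ligand, was dim: its probe was well above background on 4 Cre control and 3 BRAFV600E arrays. It ran from -5.34 over -4.52 to -4.37 in Cre control and from -6.66 over -5.13 to -5.01 in BRAFV600E, a log2 fold change of -0.70 (SE 0.29, adjusted p 0.124, exact permutation p 0.0303). All 6 BRAFV600E arrays lay below the Cre control mean for Egf. The sign turned without scaling between arrays, to 0.11, where the median of all genes was itself at 0.79. The Paneth cell markers were lower in the same arrays, at 3.36 to 5.29 against 5.74 to 6.25 in Cre control. The part of that cell type in the Egf level was not tested.

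Areg (amphiregulin) had a log2 fold change of -0.11 (SE 0.38, 95% interval -0.93 to 0.72, adjusted p 0.885). It ran from -0.03 over a median of 0.57 to 1.1 in Cre control, while the 6 BRAFV600E arrays lay apart in a higher set of 3 (replicates 2, 4 and 5 at 1.19 to 1.41) and a lower set of 3 (replicates 1, 3 and 6 at -0.41 to -0.34). The SD in BRAFV600E was accordingly 0.90, against 0.47 in Cre control (n = 6 each). Epgn (epigen) was well above background on 8 of the 12 arrays and ran from -7.25 to -3.22 in Cre control and from -5.64 to -3.35 in BRAFV600E. Its log2 fold change of 0.40 had a 95% interval of -1.26 to 2.06 (adjusted p 0.773), or 0.416-fold to 4.16-fold. Values within that interval, falls as well as rises, are compatible with these arrays.

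Among the receptors, Erbb3 had the largest fold change. Its level in Cre control ran from 3.23 over a median of 3.68 to 3.98, and in BRAFV600E from 3.80 over 4.14 to 5.12. All 6 BRAFV600E arrays were above the Cre control mean, and the log2 fold change was 0.64 (SE 0.22, adjusted p 0.0737, exact permutation p 0.0130). It was 0.37 (adjusted p 0.477) with slide as a block, and a second Erbb3 probe had a log2 fold change of -0.06 (adjusted p 0.909). Erbb2 ran from 2.78 over 3.40 to 3.78 in Cre control and from 2.92 over 3.47 to 4.08 in BRAFV600E. Its log2 fold change was 0.18 (95% interval -0.29 to 0.66, adjusted p 0.613). A second Erbb2 probe had the opposite sign, -0.13 (adjusted p 0.841 with every probe tested).

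Egfr had the smallest standard error of the 10 members (0.16). It ran from -0.29 over a median of 0.28 to 0.54 in Cre control and from 0.03 over 0.28 to 0.58 in BRAFV600E, with a log2 fold change of 0.07 (95% interval -0.27 to 0.41, adjusted p 0.799). The interval spans 0.832-fold to 1.33-fold, so that larger changes of this probe lie outside it. Of the 4 Egfr probes, the one annotated to the second RefSeq transcript, NM_007912, had a log2 fold change of -0.0030 (SE 0.15). A further probe of NM_207655 (mm9 chr11:16812181-16812240) had 0.72 (SE 0.28, adjusted p 0.117, exact permutation p 0.0368), and the last was well above background on 5 of the 12 arrays and was not tested.

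The second comparison asked whether these genes depended on MEK. In MEKi against Vehicle 1 of the 10 members was called, Btc, which fell, against 2% of all 19108 genes tested (382 genes). Btc was likewise the only member with an unadjusted p under 0.05, where 16.4% of all genes passed that mark, and the only one whose groups did not overlap, where 12.2% of all genes did not. The median size of the 10 log2 fold changes was 0.26, against 0.22 over all genes. With 4 arrays against 4 the exact permutation test cannot give a p below 0.0286.

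Btc was at -4.10, -3.85, -3.97 and -4.17 on the 4 MEKi arrays and at -3.29, -1.93, -2.80 and -2.71 on the 4 Vehicle arrays. Every MEKi array was thus below every Vehicle array, and the MEKi arrays lay within a narrow range (SD 0.14, against 0.56 in Vehicle, n = 4 each). The log2 fold change was -1.34 (SE 0.27, 95% interval -1.95 to -0.73), a 2.53-fold lower signal, with an adjusted p of 0.0492 and an exact permutation p of 0.0286. The adjusted p lay close to the threshold and moved between 0.0191 and 0.190 over the alternatives, so that the call rests on the processing while the direction held under all of them. Vehicle replicate 2, which carried the pancreas markers, had the highest Btc level (-1.93). Without it the log2 fold change was -1.09 with an adjusted p of 0.0324. The call was also kept without Vehicle replicate 1, but was lost without any 1 of the other arrays. With normexp the log2 fold change was -0.74 (adjusted p 0.0977), and with the Y-linked level as a covariate -0.99 (adjusted p 0.190). Sex could be entered only as this signal, which was high on all MEKi arrays and on 2 Vehicle arrays.

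Beside these values stand those of the first experiment for the same probe, a log2 fold change of 1.53 with the mutant kinase (adjusted p 0.0588). Genes called higher in BRAFV600E and lower in MEKi made up 0.671% of the 18468 genes tested in both comparisons (124 genes), and no member was among them.

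**Figure D2:**
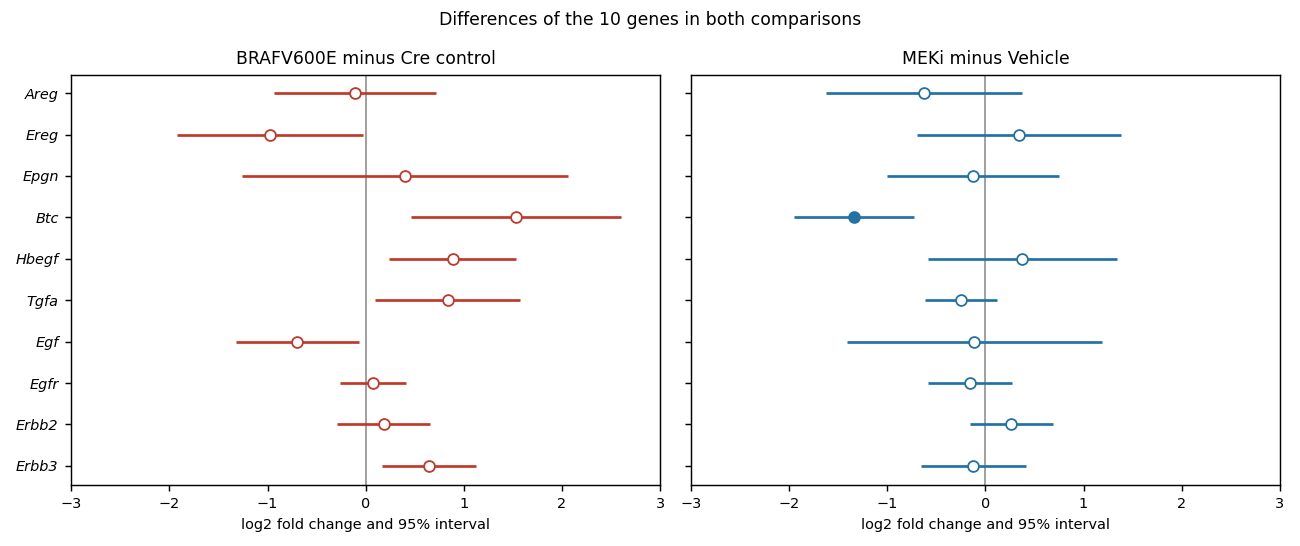
Log2 fold change of each gene (points) with its 95% interval from limma (lines), for BRAFV600E minus Cre control and MEKi minus Vehicle. The filled point is the value with an adjusted p under 0.05, Btc in the MEKi comparison at -1.34. The interval of Epgn in the BRAFV600E comparison is the widest, from -1.26 to 2.06.

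The other ligands were not called in MEKi. Areg was at -2.77, -1.61, -1.86 and -2.18 on the MEKi arrays and at -1.79, -1.06, -0.56 and -2.51 on the Vehicle arrays. Its log2 fold change of -0.63 (SE 0.43, adjusted p 0.545) had all 4 MEKi arrays below the Vehicle mean and overlapping groups. Tgfa was at -2.41, -2.29, -2.7 and -2.54 with MEKi and at -2.48, -2.39, -2.12 and -1.96 with Vehicle, a log2 fold change of -0.25 (95% interval -0.62 to 0.12, adjusted p 0.503). The groups overlapped for both ligands.

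Hbegf was at 1.56, 1.84, 1.46 and 1.36 on the MEKi arrays and at 1.22, 0.48, 2.49 and 0.52 on the Vehicle arrays, where replicate 3 stood far above the other 3. Hbegf had a log2 fold change of 0.38 (SE 0.42, adjusted p 0.730), and 0.81 (adjusted p 0.188) without that replicate. The second Hbegf probe had 1.09 (SE 0.35, adjusted p 0.210). Both Hbegf probes thus had positive values in MEKi, neither of them past the test.

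Ereg was at -2.20, -1.76, -1.53 and -2.68 with MEKi and at -2.42, -3.51, -1.31 and -2.31 with Vehicle, a log2 fold change of 0.34 (SE 0.45, adjusted p 0.783) that became -0.03 without Vehicle replicate 2. Egf was at -3.95, -4.34, -4.16 and -3.26 with MEKi and at -5.02, -2.18, -3.69 and -4.36 with Vehicle. Its highest value was again on Vehicle replicate 2, the array with pancreas markers, and the log2 fold change of -0.11 (adjusted p 0.950) became 0.43 without that array. Epgn was at -4.10, -5.24, -4.44 and -3.97 with MEKi and at -3.74, -5.22, -4.02 and -4.25 with Vehicle, a log2 fold change of -0.13 (adjusted p 0.914). The directions of Ereg, Egf and Epgn therefore each turned with the removal of 1 array.

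None of the 3 receptors was called in MEKi. Erbb3 was at 4.41, 3.94, 4.49 and 4.72 with MEKi and at 4.86, 4.51, 3.98 and 4.69 with Vehicle (log2 fold change -0.12, 95% interval -0.66 to 0.42, adjusted p 0.860). Erbb2 was at 4.16, 3.59, 3.75 and 3.97 with MEKi and at 3.89, 3.77, 3.32 and 3.44 with Vehicle (log2 fold change 0.26, 95% interval -0.16 to 0.68, adjusted p 0.548). Egfr was at 0.35, 0.12, 0.45 and 0.43 with MEKi and at 0.96, 0.17, 0.54 and 0.30 with Vehicle, a log2 fold change of -0.16 (95% interval -0.59 to 0.27, adjusted p 0.753). The Egfr probe at chr11:16812181-16812240 had the lowest value of the 3 tested Egfr probes, -0.72 (SE 0.28, adjusted p 0.282). It was thus the 1 Egfr probe with a sizeable value in both experiments, 0.72 with the mutant kinase and -0.72 with MEKi, and it passed the test in neither.

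**Figure D3:**
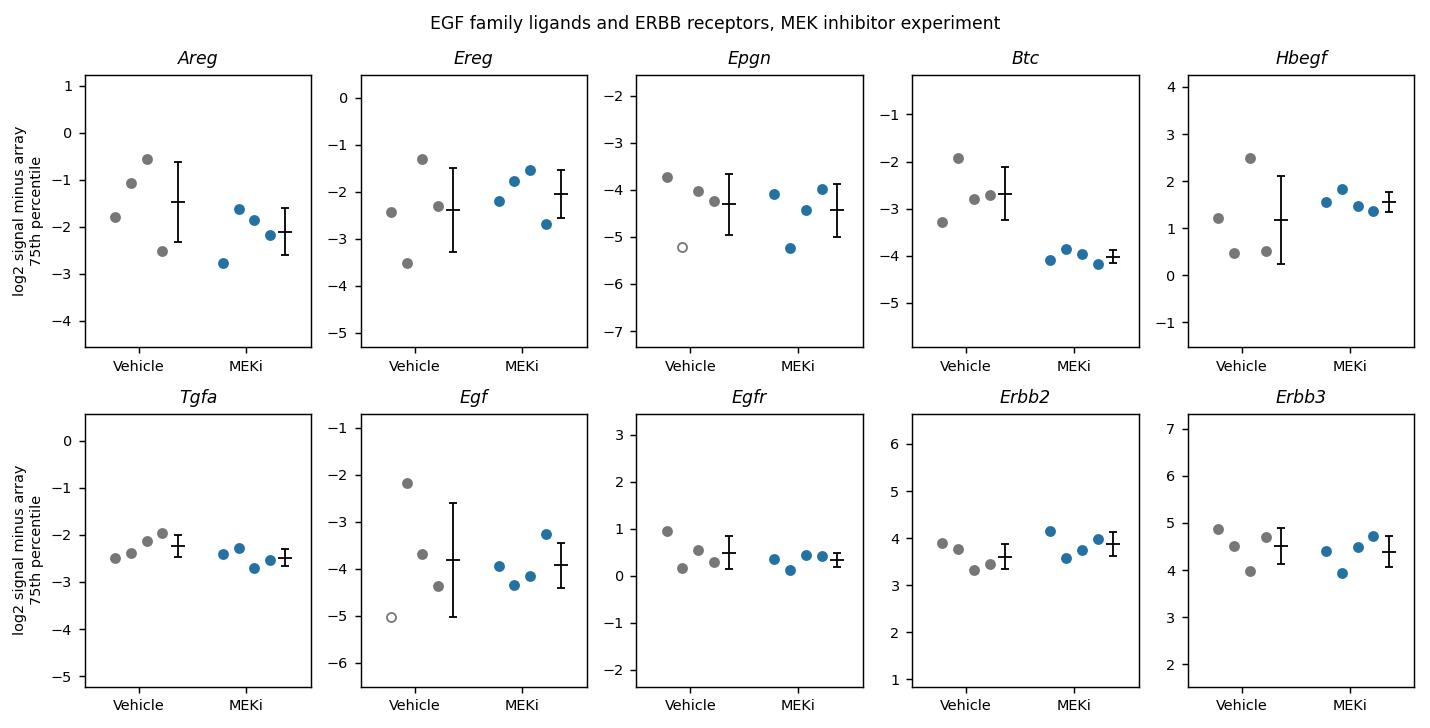
Level of each gene on every array of the MEK inhibitor experiment, as log2 signal minus the array's 75th percentile, with symbols as in the plot of the BRAFV600E experiment and black bars for the mean ± SD (n = 4). Btc is the only gene whose MEKi arrays all lie below the Vehicle arrays, at -4.17 to -3.85 against -3.29 to -1.93.

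The other genes of the pathway were taken from 4 lists of 36 genes, 35 of which were tested. In BRAFV600E 3 of them were called higher and 1 lower, 11.4% of those tested, and in MEKi 1 was called lower, 2.86% of those tested. Both shares are near those of all genes, 13% and 2%.

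Of the 11 inhibitors of the receptors, only Errfi1 (Mig6, which binds the kinase domain of EGFR and blocks it) was called in either comparison. It ran from 1.47 over a median of 1.80 to 2.23 in Cre control and from 2.94 over 3.66 to 3.85 in BRAFV600E, with no overlap. The difference was 1.72 on the log2 scale (SE 0.19, adjusted p 0.000184), a 3.30-fold higher signal. In the second experiment it was at 1.03, 1.97, 1.87 and 1.16 with MEKi and at 3.70, 3.21, 4.27 and 3.14 with Vehicle, again without overlap. It fell by 2.07 on the log2 scale (SE 0.32, adjusted p 0.0218), and was thereby among the 124 genes called higher in BRAFV600E and lower in MEKi. Its MEKi call was lost, with an adjusted p of 0.0520 to 0.0753 and a log2 fold change of -2.2 to -1.84, without any 1 of MEKi replicates 1, 3 and 4 and Vehicle replicates 1 and 3. Both probes of Errfi1 went the same way in each experiment. The leucine-rich repeat inhibitor Lrig2 had the lowest value of this list in BRAFV600E, -0.66 (adjusted p 0.291), and the highest in MEKi, 0.67 (adjusted p 0.308).

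Among 8 genes of ligand shedding, Rhbdf1 and Frmd8 were called higher in BRAFV600E. Their products, iRhom1 and the iRhom partner FRMD8, help to bring the sheddase ADAM17 to the cell surface. Rhbdf1 ran from -0.03 over a median of 0.11 to 0.38 in Cre control and from 0.31 over 0.62 to 0.81 in BRAFV600E, a log2 fold change of 0.45 (SE 0.13, adjusted p 0.0431). Frmd8 ran from 3.25 over 3.47 to 3.73 in Cre control and from 3.61 over 3.96 to 3.99 in BRAFV600E, a log2 fold change of 0.43 (SE 0.12, adjusted p 0.0383). The groups overlapped for both genes. The alternatives, among them slide as a block, were followed only for the members and Errfi1. Whether the calls of Rhbdf1 and Frmd8 hold under them was not tested. A second Rhbdf1 probe, dimmer than the first, had 0.82 in BRAFV600E and -0.84 in MEKi. At an unadjusted p under 0.05, 3 of the 8 genes differed in BRAFV600E, against 30.5% of all genes. The highest value of the list was that of the protease gene Adam9, 1.18 (adjusted p 0.0537), and the lowest that of Adam12, -0.20. In MEKi none of the 8 was called, from Rhbdf1 at -0.59 (adjusted p 0.238) to Adam17 at 0.14, and 7 of the 8 values were negative. At an unadjusted p under 0.05, 2 of the 8 differed there, against 16.4% of all genes.

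Of the neuregulins, Nrg4, a ligand of ERBB4, fell in BRAFV600E. It ran from -1.83 over a median of -0.65 to -0.28 in Cre control and from -3.28 over -2.21 to -1.64 in BRAFV600E, where only Cre control replicate 1 reached the BRAFV600E range. The log2 fold change was -1.52 (SE 0.32, adjusted p 0.0108). Whether this call holds with slide as a block or under the other alternatives was not tested. In the second experiment Nrg4 was at -1.17, -0.74, -0.64 and 0.10 with MEKi and at -1.95, -2.0, -1.95 and -1.59 with Vehicle. The MEKi arrays were all above the Vehicle arrays, and the log2 fold change of 1.26 (SE 0.26) had an adjusted p of 0.0537. All 4 Nrg4 probes had negative values in BRAFV600E and positive ones in MEKi. Erbb4 had the highest value of this list in BRAFV600E, 0.08 (fitted without BRAFV600E replicate 3, whose spot was an outlier), and Nrg1 the lowest in MEKi, -0.26. Nrg3 did not pass the filter on dim probes.

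None of the 12 receptor adaptors was called in either comparison. Their values ran from Gab2 at -0.40 (adjusted p 0.20) to Eps8 at 0.67 (adjusted p 0.0695) in BRAFV600E, and from Eps8 at -0.33 to Gab2 at 0.54 (adjusted p 0.219) in MEKi. At an unadjusted p under 0.05 in the same limma fits, 2 of the 12 differed in BRAFV600E and 1 in MEKi, against 30.5% and 16.4% of all genes.

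**Figure D4:**
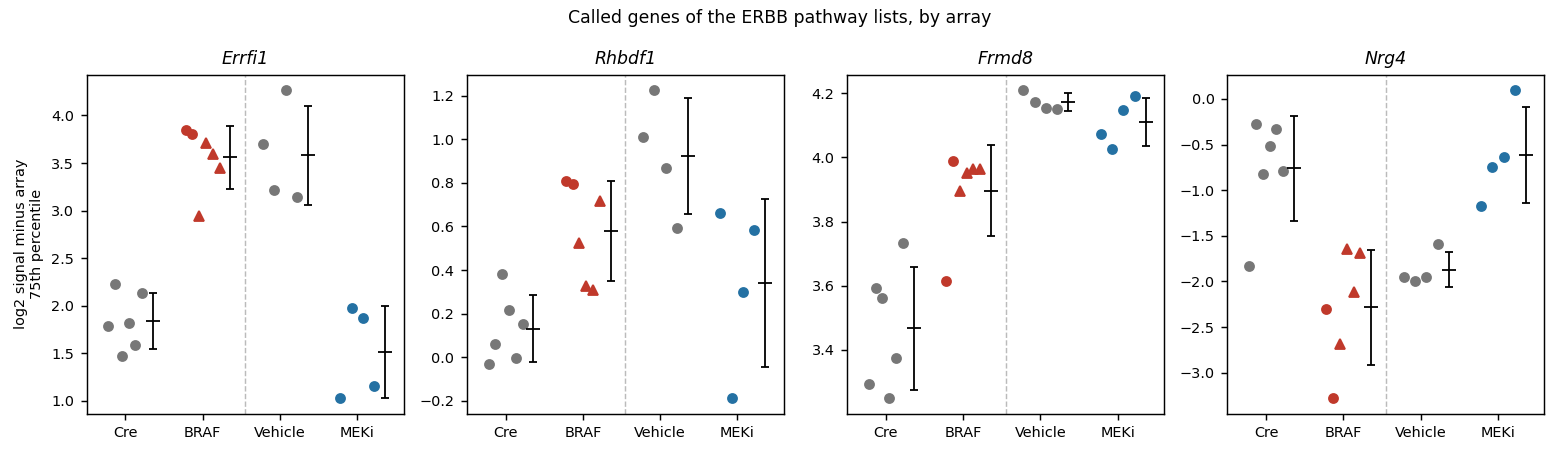
Level of the 4 called genes of the pathway lists on every array, as log2 signal minus the array's 75th percentile, with triangles for slide 2 and black bars for the mean ± SD (n = 6 or 4). The dashed line separates the experiments, which were not compared. Errfi1 is between 2.94 and 3.85 in BRAFV600E and between 1.03 and 1.97 in MEKi, apart from its controls in both.

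The rule for genes of like pattern applied to members called in BRAFV600E and so named none. For Btc, chosen after its values were seen, the 5 genes with the highest Pearson correlation over the 20 arrays, after each experiment's own mean was subtracted, were Paqr8 (r = 0.89), Rin1 (0.89), Enpp1 (0.88), Cldn2 (0.88) and Plce1 (0.88). The points share their arrays and the group differences, so the correlation describes these arrays alone. Paqr8, a membrane progesterone receptor gene, was called in both comparisons, higher in BRAFV600E by a log2 fold change of 3.6 (adjusted p 0.00160) and lower in MEKi with one of -3.0 (adjusted p 0.00463). Rin1, which encodes a RAS effector, was called in both as well, with 1.17 (adjusted p 0.00692) and -1.22 (adjusted p 0.0184). Cldn2 and Plce1 were called in BRAFV600E (adjusted p 0.00765 and 0.0232) and not in MEKi (0.104 and 0.0579), and Enpp1 in neither (0.0532 and 0.461).

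**Figure D5:**
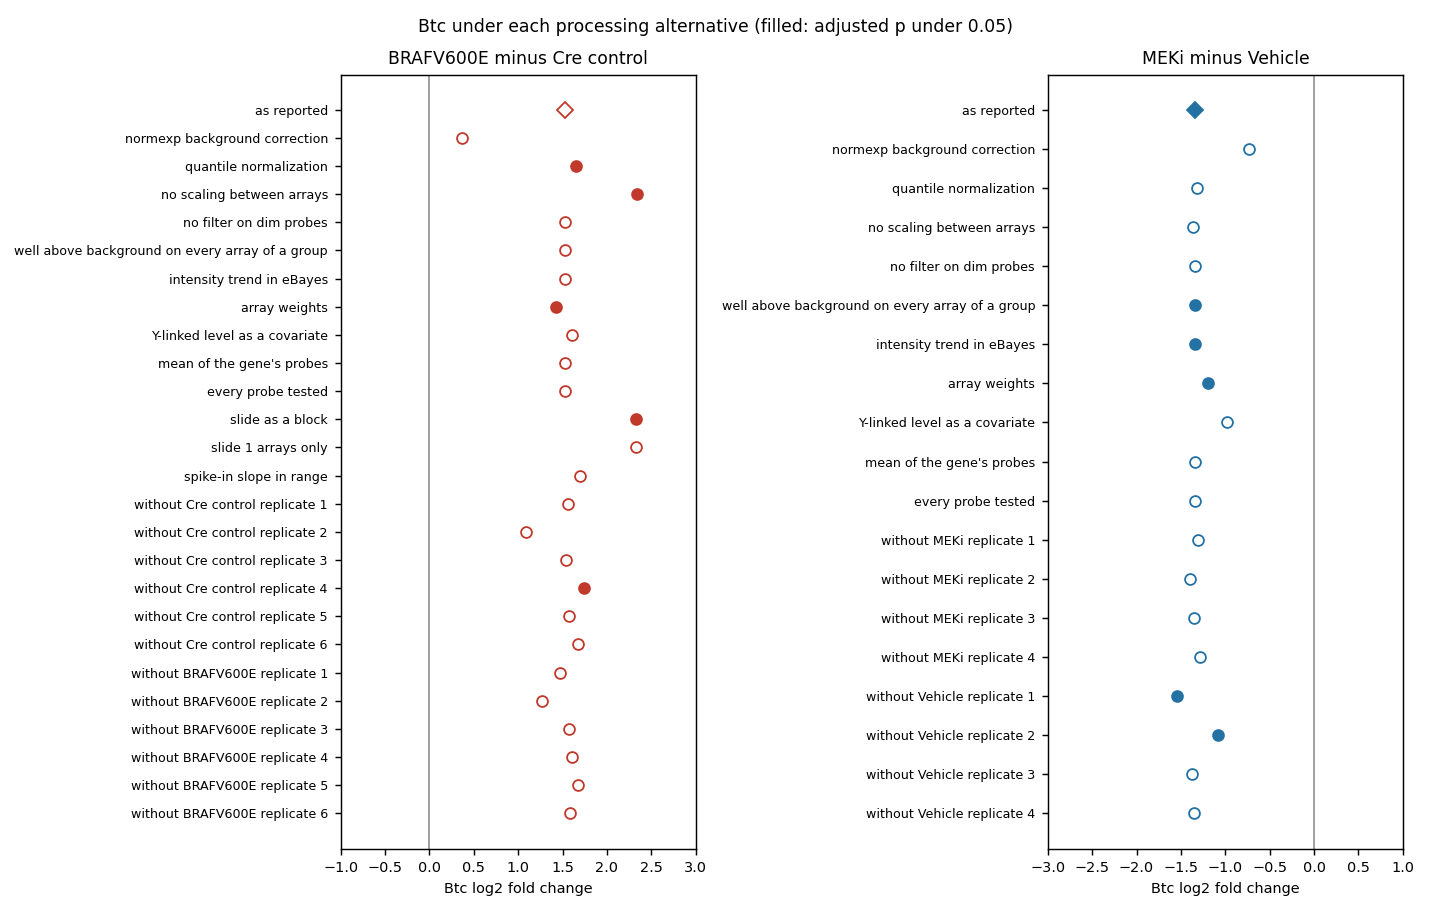
Log2 fold change of Btc as reported (diamond) and under each processing alternative (circles), filled where the adjusted p was under 0.05. The values keep their direction in both experiments, from 0.36 to 2.34 for BRAFV600E minus Cre control and from -1.54 to -0.74 for MEKi minus Vehicle, whereas filled and open points mix.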

How the data were processed

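Per the file headers, the authors scanned 1-colour arrays and extracted them with Agilent Feature Extraction 10.5.1.1, which subtracted background and corrected spatial trends within each array. The deposited intensity is linear and not normalized between arrays. The authors' series matrix held the same intensity and served as the alternative without scaling. The authors also deposited other marks per spot (0 or 1), used here as filters. Each array had 62976 spots, 59305 of them not controls, with 36032 to 45518 well above background and 0 saturated. The number of arrays limits the precision, and replicate arrays are separate mice.

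Here the deposited intensity was put on the log2 scale, each array's 75th percentile (540 to 1554) was subtracted, outlier spots were left out and copies of a probe averaged (56605 probes). Other genes were named through RefSeq and 12662 probes had no symbol. The brightest probe stood for a gene. Genes were fitted where the probe was well above background on 6 or more of 12, or 4 or more of 8, arrays, with limma 3.58.1 in R 4.3.3 and adjusted by Benjamini-Hochberg, and the fit was tested on simulated data. Genes, lists and tests were chosen with earlier results of these data known. Named are all members, called genes of the lists with each list's extremes, and markers that moved with a group. The alternatives were another background correction, normalization, filter, probe rule or variance model, array weights, Y-linked level, slide, spike-in slope (0.9 to 1.2), each array left out and exact permutation. Whether probes lie in exons or UTRs was not analysed here. Motifs were searched on both strands.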

Additional observations from a re-analysis of the deposited data

Results flagged for a closer look

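Among 44 sets of values (the 10 members and Errfi1 in each of the 4 groups), 2 held an array that stood apart from the rest of its group by the gap between it and its nearest neighbour, and chance alone gives about 1 in 20 such sets. Btc on Cre control replicate 2 was at -6.52, where the nearest Cre control array was at -4.28 and the probe was not well above background. Egf on BRAFV600E replicate 5 was at -6.66, where the nearest BRAFV600E array was at -5.58 and neither of these arrays was well above background.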

How the results depend on the processing

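In BRAFV600E against Cre control the number of members called higher went from 0 to 2 with normexp background correction (Erbb3 and Hbegf, while Btc went from 1.53 to 0.36 and Tgfa from 0.83 to 0.21), 1 with quantile normalization (Btc), 3 with array weights (Btc, Erbb3 and Hbegf), 1 with slide as a block (Btc) and 6 without scaling, where the median of all genes was at 0.79, and 4 passed the exact permutation test unadjusted. The Btc call with slide as a block rests on the 2 BRAFV600E arrays of slide 1. Members called lower went from 0 to 2 with normexp (Egf and Ereg), and 1 passed the exact test (Egf). Leaving out each array gave 0 to 1 called higher (Hbegf without Cre control replicate 1 or BRAFV600E replicate 1, Btc without Cre control replicate 4) and 0 to 0 called lower. In MEKi against Vehicle, Btc was no longer called (0 members) with normexp (log2 fold change -0.74), quantile normalization, no scaling, no filter on dim probes, the Y-linked covariate, the mean of the gene's probes or every probe tested. Leaving out each array gave 0 to 1 called lower, with the call kept without Vehicle replicate 1 or 2 alone. The cause was not tested.

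The sign of Areg in BRAFV600E turned with normexp (0.0090), no scaling (0.70) and the Y-linked covariate (0.056), that of Epgn with normexp (-0.35), of Egf without scaling (0.11), of Erbb2 with slide as a block or slide 1 alone (-0.20 in both) and of Egfr on arrays with a spike-in slope in range (-0.012). In MEKi it turned for Ereg with array weights (-0.089) and the covariate (-0.19), for Egf with the same (0.48 and 0.42) and for Hbegf with the covariate (-0.32). With each array left out, Areg ran from -0.30 to 0.067, Epgn from -0.14 to 0.69 and Egfr from -0.031 to 0.14 in BRAFV600E, and Ereg from -0.034 to 0.70, Egf from -0.51 to 0.43, Epgn from -0.43 to 0.14 and Erbb3 from -0.30 to 0.028 in MEKi. Errfi1 kept its direction throughout, with adjusted p up to 0.0636 in BRAFV600E (spike-in slope in range) and 0.0753 in MEKi, where 5 of the 8 fits without 1 array lost its call.

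Over all genes, 2468 calls in BRAFV600E became 4771 with normexp, 9298 without scaling, 1568 with slide as a block and 728 on slide 1. They became 16 on arrays with a spike-in slope in range and 1478 without Cre control replicate 3. The 382 in MEKi became 73 without scaling, 239 without the filter, 1128 with array weights, 54 with the covariate and 85 without MEKi replicate 1. The recorded spike-in slope was 0 on BRAFV600E replicates 3 to 6, all of slide 2, and 0.76 to 0.84 on Cre control replicates 2, 3 and 5. The BRAFV600E fit with a slope in range thus held only Cre control replicates 1, 4 and 6 and BRAFV600E replicates 1 and 2. The cause of these slopes was not tested. No paired analysis was possible because replicate numbers only name the arrays. Signal close to background limits Egf and Epgn, which were well above it on 14 and 15 of the 20 arrays.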
